A study of Mus musculus with 10 samples.

Results

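The response of 2 control lines of mouse neural stem cells to differentiation medium was measured by RNA sequencing, gene by gene. The control lines, Control NSC#1 and Control NSC#2, lack p53, the tumour suppressor encoded by Trp53, and were transduced with the glioma-associated mutant of isocitrate dehydrogenase 1, IDH1(R132H). Each gave 1 library from proliferation medium, where the growth factors EGF and bFGF were added (20 ng/ml). Each gave another after differentiation for 8 days, in a neural basal medium that had B27 and lacked both factors. Loss of the factors, other components of the medium and the 8 days of differentiation cannot be told apart in these data. These 4 libraries, of 10 in the series, were chosen by their labels. The remaining 6 come from 3 Atrx-deleted lines of the same p53-null, IDH1(R132H) background (mA16d#4, mA19d#4 and mA19d#7), grown in the same media. Since every line carries both alterations, the response of cells with p53 or without the mutant enzyme is not part of these data. The labels do not say whether the control lines come from separate animals or from 1 culture, or what the control treatment was. A difference between media therefore has 2 pairs of libraries behind it. Its p-values rest on how far the changes of the 2 lines disagree, which may be technical, and mostly on the spread shared across genes.

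Neural stem cells are kept dividing in culture by EGF and FGF2, whose receptors signal through RAS and ERK and induce both cell cycle genes and feedback inhibitors of the pathway. When these factors are withdrawn, cultured neural stem cells leave the cell cycle and can become astrocytes, oligodendrocytes or neurons. The proportion of each depends on the serum, supplements and factors that are left in the medium.

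Levels are given in TPM, the length-corrected share of a gene among all transcripts, Control NSC#1 before Control NSC#2, and changes are differentiation minus proliferation on the scale log2(TPM + 1), fitted by line with limma. A number in parentheses after a gene or its TPM levels is its log2 change, followed by its SE and limma adjusted p where given. Of 21101 genes in the table, 14539 reached 1 TPM in at least 2 of the 4 libraries and were tested, 424 of them through 1 medium alone. Of these, 3646 (25.1%) passed a Benjamini-Hochberg adjusted p of 0.05, 1805 higher (12.4%) and 1841 lower (12.7%) in differentiation medium. The median change over all tested genes was -0.01. By at least 1 on the log2 scale, 760 genes rose (5.23%) and 793 fell (5.45%). With 1 residual degree of freedom per gene, these calls lean on the spread that limma shares across genes of like level, and without that trend, or without the filter on low values, 0 genes passed (4388 and 4242 at an unadjusted p under 0.05, against 5411). A fit in which all 10 libraries set the spread, called the ten-library fit below, called 328 genes higher (2.26%) and 420 lower (2.89%). Of its 748 calls, 742 were also calls of the paired fit, and its counts are given beside those of the paired fit. Both fits take the same changes from the same 4 control libraries and differ in the spread alone. Their overlap is therefore largely set by the design and is not separate evidence. Counts of list members in either fit are to be read beside these shares of all tested genes. The median SD between lines was smaller in the control libraries than in the Atrx-deleted ones. It was 0.147 and 0.140 against 0.251 and 0.339 in proliferation and differentiation medium. These SDs are over 2 control and 3 Atrx-deleted libraries per medium, for genes filtered by their control levels. The median SD of 2 values tends to be lower than that of 3, so part of the gap comes from the group sizes. With single control libraries left out in turn, the ten-library fit called 6 to 159 genes. The other 3 control libraries fitted alone without pairing, a setting added after seeing the data, called 167 genes without the proliferation library of Control NSC#1, and 695, 1057 and 1143 without the others. An exact permutation test over 2 pairs cannot go below p = 0.5, so it was not used for single genes. With 2 libraries per medium, groups that do not overlap are a description of levels and add nothing to the test.

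Of the genes that changed by at least 1 in both lines, most did so in the same direction. Among these, 656 genes were higher and 724 lower in differentiation medium in both, while 138 moved in opposite directions. Across the tested genes, the change in Control NSC#1 and the change in Control NSC#2 had a Pearson r of 0.653 and a Spearman rho of 0.622. Genes are not independent replicates, so these describe the pair of lines. Changes were larger in Control NSC#1, where 2861 genes moved by at least 1 against 2241 in Control NSC#2, and the major axis of the second on the first had a slope of 0.771.

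**Figure D1:**
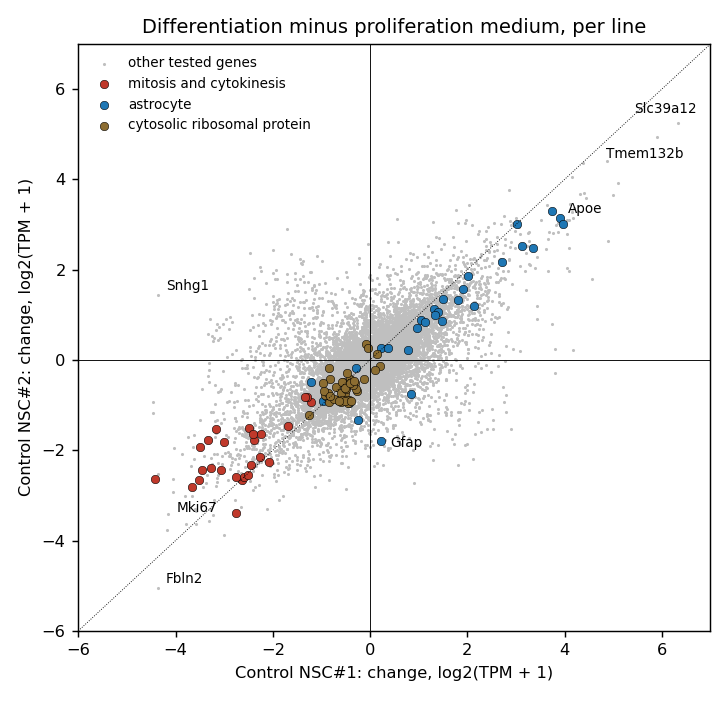
Change of each tested gene between differentiation and proliferation medium, log2(TPM + 1), in Control NSC#1 (x axis) and Control NSC#2 (y axis), with the mitosis, astrocyte and cytosolic ribosomal protein lists coloured and equality dotted. The mitosis genes lie low in both lines, most astrocyte genes lie high in both, and Snhg1 and Gfap are examples of genes with changes of opposite sign in the lines.

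The cultures had the markers of neural stem cells and glial precursors in both media, and several defining markers of microglia and vessel cells were below 1 TPM. Sox2, a transcription factor of neural stem cells, was at 411 and 494 TPM in proliferation medium and at 422 and 437 TPM in differentiation medium, so the groups overlapped (log2 -0.07, adjusted p = 0.716). Of 15 microglia and macrophage markers in the table, 7 were below 1 TPM in every library, Csf1r, Itgam and Trem2 among them. Of 12 endothelial markers 4 were below 1 TPM in every library (Cdh5, Cldn5, Flt1 and Erg), and the highest was the adhesion gene Esam, at up to 9.32 TPM. Of 4 tested microglia markers 0 rose and 1 fell, and of 6 endothelial markers 0 passed. In the ten-library fit 0 markers of either list passed. Trp53 was at 59.6 and 52.6 TPM in proliferation medium and at 55.9 and 54.5 TPM in differentiation medium (log2 -0.02, adjusted p = 0.938). A value per gene cannot show which exons were read, so it does not check the p53-null label. Atrx (163 and 149 against 128 and 127 TPM, adjusted p = 0.0972), its partner Daxx (55.8 and 58.5 against 47.2 and 50.7 TPM, adjusted p = 0.288) and Idh1 (272 and 259.6 against 226 and 243 TPM, adjusted p = 0.275) did not pass the test between media. Their log2 changes were -0.29, -0.22 and -0.18. In bulk RNA, fewer cells of a type and less RNA per cell cannot be told apart, and this holds for every result that follows.

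Genes of mitosis and cytokinesis fell together, with the lowest median change of the 41 lists examined. Of 26 tested members, 26 fell and 0 rose, against 12.7% of all tested genes that fell, and 23 fell in the ten-library fit. Their median log2 change was -2.47, with a range from -3.53 to -1.06, and their summed level was 2336 and 1467 TPM in proliferation medium and 322 and 321.5 TPM in differentiation medium. The starting level was therefore lower in Control NSC#2, while both lines reached the same level. With a control library left out of the ten-library fit, 9 of these falls passed without the proliferation library of Control NSC#2, 1 without the differentiation library of that line and 0 without either library of Control NSC#1. In the control libraries alone without pairing, 15 to 22 falls passed without 3 of the libraries and 2 without the proliferation library of Control NSC#1.

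The promoters of several of these genes are shown because they carry the sequence features that the list shared. In mitotic genes, the cell cycle homology region (CHR, TTTGAA) together with upstream CCAAT boxes is known as the arrangement bound by DREAM-type complexes and NF-Y, while E2F sites are typical of genes of S phase. Windows from 250 bases before to 50 bases after the start (RefSeq, GRCm38.p6) were found for 22 of the 26 genes, 23 windows in all. On either strand, TTTGAA stood in 73.9% of them, against 11.8% of 13914 windows of tested genes and 17.9% of all 32851 windows. CCAAT stood in 82.6%, against 37.6% of the windows of tested genes. An E2F site (any of TTTCCCGC, TTTGGCGC, TTTCGCGC and TTTGCCGC, whose copies on opposite strands can overlap) stood in 4.35%, against 3.69%. These matches are descriptions of the letters and not evidence of binding. The stretches directly upstream of the starts of Mki67 (chr7:135716380-135716524, minus strand), Top2a (chr11:99024190-99024339, minus strand), Cdk1 (chr10:69352913-69353012, minus strand) and Cdc20 (chr4:118437344-118437423, minus strand) follow, read along the gene, with TTTGAA and CCAAT in capitals (TTCAAA and ATTGG where they lie on the other strand).
Mki67: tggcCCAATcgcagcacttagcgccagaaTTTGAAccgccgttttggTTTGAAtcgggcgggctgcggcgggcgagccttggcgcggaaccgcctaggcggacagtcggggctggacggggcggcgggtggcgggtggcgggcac
Top2a: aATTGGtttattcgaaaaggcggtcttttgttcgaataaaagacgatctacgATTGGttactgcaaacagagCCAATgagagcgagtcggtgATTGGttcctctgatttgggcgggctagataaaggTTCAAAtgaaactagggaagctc
Cdk1: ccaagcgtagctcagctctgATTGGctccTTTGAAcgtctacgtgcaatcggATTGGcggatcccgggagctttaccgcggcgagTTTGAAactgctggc
Cdc20: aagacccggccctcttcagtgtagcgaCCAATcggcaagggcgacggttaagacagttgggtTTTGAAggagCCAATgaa

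Mki67 (ENSMUSG00000031004, chromosome 7, 135689784 to 135716361, GRCm38 with GENCODE M21), which encodes the Ki-67 antigen of dividing cells, was at 306 and 171 TPM in proliferation medium and at 23.1 and 23.5 TPM in differentiation medium. Both differentiation libraries were far below both proliferation libraries and close to each other (log2 change -3.24, SE 0.189, adjusted p = 1.03e-05 with limma). Top2a, the topoisomerase that untangles chromosomes before division, was at 206 and 122 TPM in proliferation medium and at 23.6 and 21.8 TPM in differentiation medium, again without overlap (log2 change -2.75, SE 0.17, adjusted p = 1.22e-05). Cdk1, the kinase that starts mitosis, fell from 61.5 and 40.6 to 4.56 and 9.97 TPM (-2.71, SE 0.331, adjusted p = 0.000413). Its cyclin Ccnb1 fell from 142 and 94.2 to 12 and 16.5 TPM (-2.95, SE 0.225, adjusted p = 3.12e-05). The values of Cdk1 and Ccnb1 were higher in Control NSC#2 than in Control NSC#1 after differentiation, the reverse of their order before it. Cdc20, an activator of the anaphase-promoting complex, fell from 82.0 and 61.2 to 12.4 and 8.88 TPM (-2.64, SE 0.18, adjusted p = 1.72e-05). The largest fall of the list was that of Ube2c, a ubiquitin-conjugating enzyme of the same complex, from 176 and 90.4 to 7.24 and 13.7 TPM (-3.53, SE 0.331, adjusted p = 9.03e-05). The smallest was that of the kinesin gene Kif20a, from 88.1 and 57.9 to 35.0 and 32.5 TPM (-1.06, SE 0.164, adjusted p = 0.00152), which did not pass in the ten-library fit (adjusted p = 0.0851). The centromere genes Cenpf (-3.09) and Cenpa (-3.08) and the mitotic transcription factor gene Foxm1 (-2.03) lay between these on the log2 scale.

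Genes of DNA replication fell less. Of 28 tested members 11 fell, 1 rose and 16 did not pass, with a median change of -0.57, and in the ten-library fit 2 fell and 0 rose. Their summed level was 1117 and 841 TPM in proliferation medium and 589 and 627 TPM in differentiation medium. Windows were found for 22 of these genes (26 windows), and an E2F site stood in 42.3% of them, TTTGAA in 15.4% and CCAAT in 65.4%. The stretches upstream of Mcm5 (chr8:75109349-75109508, plus strand) and Mcm6 (chr1:128359706-128359825, minus strand), subunits of the replicative helicase, show the E2F letters and CCAAT boxes in capitals, on either strand.
Mcm5: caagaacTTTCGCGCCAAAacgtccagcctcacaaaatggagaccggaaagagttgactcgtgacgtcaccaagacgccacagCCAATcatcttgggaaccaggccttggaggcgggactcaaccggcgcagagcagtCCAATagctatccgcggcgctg
Mcm6: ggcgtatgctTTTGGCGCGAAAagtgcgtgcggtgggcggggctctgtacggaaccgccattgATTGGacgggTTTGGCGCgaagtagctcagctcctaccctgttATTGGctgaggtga

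Mcm5 fell from 34.1 and 27.1 to 15.1 and 11.5 TPM (-1.15, SE 0.207, adjusted p = 0.00349), and Mcm6 from 53.4 and 40.4 to 25.3 and 24.0 TPM (-0.89, SE 0.173, adjusted p = 0.00521). In both genes the groups did not overlap. Tk1, the thymidine kinase of dividing cells, fell from 48.6 and 36.7 to 5.12 and 15.7 TPM (-2.10, SE 0.364, adjusted p = 0.00278). Pcna, the sliding clamp of the replication fork, fell from 208 and 155 to 111 and 115 TPM (-0.67, SE 0.137, adjusted p = 0.00678). The single rise was that of Ccne1, cyclin E1, which drives entry into S phase, from 8.87 and 9.59 to 14.5 and 21.7 TPM (0.87, SE 0.262, adjusted p = 0.0364).

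Among CDK inhibitors, D-type cyclins and other genes of cell cycle exit, 3 of 19 tested genes rose and 7 fell (median -0.33), and 0 passed in the ten-library fit. The list mixes inhibitors and drivers of the cycle, so its median has no direction of its own. The cyclins Ccnd2 (from 297 and 242 to 71.3 and 92.2 TPM) and Ccnd1 (from 242 and 170.1 to 96.9 and 105 TPM) fell by 1.71 and 1.00, whereas Ccnd3 rose by 0.72 (from 67.9 and 87.8 to 119.8 and 137 TPM). Cdkn2b, the p15 inhibitor of CDK4 and CDK6, rose from 0.00391 and 1.92 to 2.26 and 13.5 TPM (2.01, SE 0.469, adjusted p = 0.0123). Its level differed between the lines in both media. Cdkn1a, the p53-inducible inhibitor p21, was at 11.1 and 9.36 TPM in proliferation medium and at 16.3 and 17.1 TPM in differentiation medium. Its change did not pass (log2 change 0.66, SE 0.254, limma adjusted p = 0.0882). Cdkn1b, the inhibitor p27, fell from 167 and 178 to 121 and 121 TPM (-0.51, SE 0.114, adjusted p = 0.0103), and the p18 gene Cdkn2c fell by 1.21. The retinoblastoma family gene Rbl2 rose by 0.44.

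Genes of chromatin and DNA methylation fell more often than they rose. Of 32 tested members 13 fell and 1 rose (median -0.38), and 3 fell and 0 rose in the ten-library fit. The largest falls were those of Hmgb2, a chromatin protein of dividing cells (from 204 and 146 to 36.9 and 36.7 TPM, log2 -2.20), the histone chaperone Asf1b (from 42.6 and 25.4 to 6.05 and 10.2 TPM, -1.93) and the lamin Lmnb1 (from 164 and 125 to 52.6 and 63.6 TPM, -1.29). Ezh2, the catalytic subunit of Polycomb complex PRC2, fell by 0.91 and the maintenance methyltransferase Dnmt1 by 0.73. Hira, a chaperone of histone H3.3, rose from 29.1 and 36.6 to 46.1 and 54.4 TPM (0.60, SE 0.155).

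Feedback and early response genes of ERK signalling, which read out growth factor input, fell in part. Of 26 tested members 12 fell, 0 rose and 14 did not pass (median -0.48), and 2 fell in the ten-library fit. With a control library left out, 0 or 1 of the falls passed in the ten-library fit and 1, 2, 7 and 7 in the control libraries alone, the fewest without the proliferation library of Control NSC#1. Etv5, an ETS transcription factor downstream of FGF receptors, was at 600.5 and 446 TPM in proliferation medium and at 181 and 193 TPM in differentiation medium. Both proliferation libraries were above both differentiation libraries (log2 change -1.46, SE 0.138, adjusted p = 9.43e-05). Spry4, a feedback inhibitor of receptor tyrosine kinases, fell from 40.6 and 34.0 to 11.4 and 12.6 TPM (-1.55, SE 0.211, adjusted p = 0.000744). The other Sprouty genes that passed fell by less, Spry1 by 0.82 and Spry2 by 0.48. The early growth response genes Egr2 (from 19.1 and 19.0 to 2.72 and 3.38 TPM) and Egr1 (from 34.9 and 41.6 to 20.4 and 16.2 TPM) fell by 2.31 and 1.03. Dusp6, a phosphatase of ERK often used as a readout of the pathway, was at 86.6 and 70.8 TPM in proliferation medium and at 62.9 and 87.1 TPM in differentiation medium, so the groups overlapped (log2 -0.08, adjusted p = 0.781).

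The receptors and ligands of this signalling did not fall as a group. Of 21 tested members 6 rose and 1 fell (median 0.34), with 4 rises and 0 falls in the ten-library fit. Egfr, the receptor of the withdrawn EGF, was at 343 and 357 TPM in proliferation medium and at 262 and 291 TPM in differentiation medium. Its level was lower in both lines after differentiation by a margin that missed the threshold (log2 change -0.34, SE 0.111, adjusted p = 0.0516). Hbegf, which encodes a membrane-anchored EGF receptor ligand, rose from 12.2 and 22.9 to 125 and 147 TPM (2.95, SE 0.177, adjusted p = 1.14e-05). Fgf2, the gene of the other withdrawn factor, rose from 1.78 and 1.77 to 28.2 and 10.4 TPM (2.72, SE 0.403, adjusted p = 0.0012). The rise was larger in Control NSC#1. The neuregulin receptor Erbb4 rose by 1.73 (from 23.8 and 37.7 to 99.7 and 104 TPM), the FGF receptors Fgfr3 by 1.17 (from 69.6 and 104 to 197 and 189 TPM) and Fgfr2 by 0.89, and Fgf1 fell by 0.40 (from 205 and 165 to 149 and 129 TPM).

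Neural stem cell and radial glia genes moved in both directions. Of 23 tested members 5 rose, 7 fell and 11 did not pass (median -0.08), with 1 rise and 3 falls in the ten-library fit. Nes, which encodes the intermediate filament nestin of neural stem cells, fell from 642 and 532 to 245 and 284 TPM (-1.15, SE 0.136, adjusted p = 0.000342). Tnc, the extracellular matrix protein tenascin C of the stem cell niche, fell from 91.9 and 83.3 to 6.31 and 9.45 TPM (-3.34, SE 0.211, adjusted p = 1.34e-05). Hmga2, a chromatin factor of young stem cells, fell from 47.5 and 36.3 to 4.89 and 7.56 TPM (-2.58, SE 0.271, adjusted p = 0.000178). Vim, another intermediate filament gene, and Hes5, a Notch target, fell by 1.43 and 1.05. In the other direction, Slc1a3, a glutamate transporter shared by radial glia and astrocytes, rose from 619.5 and 688 to 1541 and 1518 TPM (1.23, SE 0.129, adjusted p = 0.000178). Fabp7, the brain lipid-binding protein of radial glia, rose from 5423 and 5423 to 11021 and 11021 TPM, with equal values in the lines because the libraries share 1 set of values (1.02, SE 0.214, adjusted p = 0.00733). Sox1 and Msi1 rose by 1.00 and 0.90. Sox9 (76.1 and 85.9 against 89.0 and 104 TPM, adjusted p = 0.174) and Hes1 (77.9 and 48.7 against 46.0 and 53.3 TPM, adjusted p = 0.288) did not pass.

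**Figure D2:**
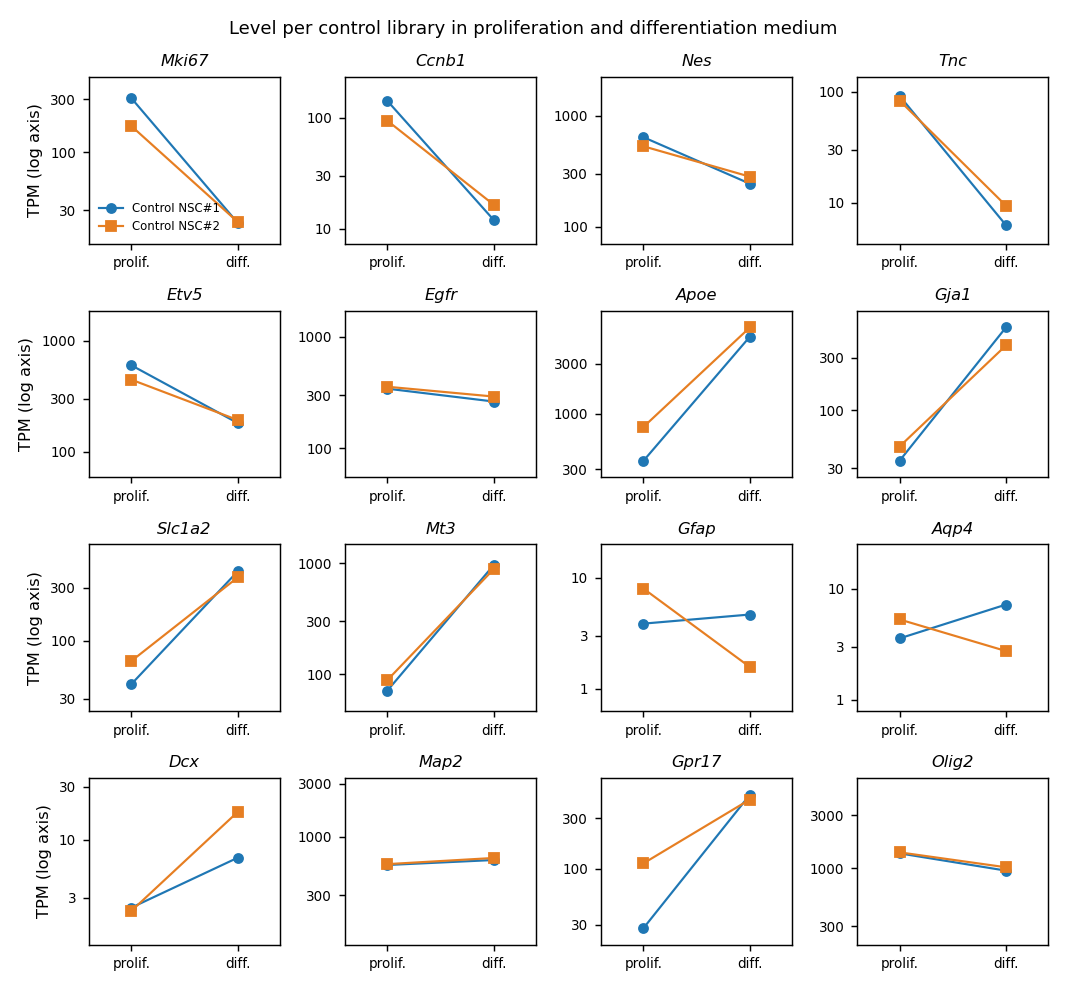
Level of 16 genes in the 4 control libraries (y axis, TPM on a log scale with a range set per gene), in proliferation (prolif.) and differentiation (diff.) medium, with a line joining the libraries of each cell line. Mki67, Ccnb1, Nes, Tnc and Etv5 go down and Apoe, Gja1, Slc1a2, Mt3 and Gpr17 go up in both lines, while the lines of Gfap and Aqp4 cross.

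Astrocyte genes were the list with the largest share of rises among the glial and neuronal lists. Of 31 tested members 20 rose, against 12.4% of all tested genes, 5 fell and 6 did not pass (median 1.16). In the ten-library fit 9 rose and 0 fell. With a control library left out of that fit, 4 rises passed without the proliferation library of Control NSC#2 and 0 without any of the other 3, while 12 to 17 passed in the control libraries alone without pairing. The summed level of the list went from 9180 and 10644 TPM to 30685 and 29205 TPM. Apoe (ENSMUSG00000002985, chromosome 7, 19696109 to 19699188), the lipid carrier that astrocytes secrete, was at 359 and 753 TPM in proliferation medium and at 5423 and 6640.1 TPM in differentiation medium, the highest level of the list. Both lines rose, from a lower start in Control NSC#1 (log2 change 3.53, SE 0.189, adjusted p = 6.8e-06). The glutamate transporter Slc1a2, which clears synaptic glutamate, rose from 40.7 and 65.7 to 421 and 372 TPM (2.91, SE 0.179, adjusted p = 1.22e-05). Gja1, the gap junction protein connexin 43, rose from 35.0 and 47.1 to 561 and 386 TPM (3.48, SE 0.192, adjusted p = 8.07e-06). In the ten-library fit Gja1 did not pass (adjusted p = 0.161). Glul, glutamine synthetase, rose from 1180.3 and 1305 to 3336 and 3336 TPM (1.43, SE 0.149, adjusted p = 0.000173). The bicarbonate transporter Slc4a4 rose by 2.82, Clu by 3.02, Mlc1, a membrane protein of astrocytic endfeet, by 1.75, and Aldoc, the brain aldolase, by 0.83.

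Other astrocyte genes did not follow. Gfap, the intermediate filament gene most used to mark astrocytes, was at 3.85 and 7.96 TPM in proliferation medium and at 4.65 and 1.57 TPM in differentiation medium, low in all 4 libraries, with overlap between the groups and a change of opposite sign in the lines (log2 change -0.79, SE 0.511, adjusted p = 0.294). Aqp4, the water channel of astrocytic endfeet, was at 3.58 and 5.30 TPM in proliferation medium and at 7.21 and 2.75 TPM in differentiation medium, with overlap as well (log2 change 0.05, SE 0.457, adjusted p = 0.954). The folate enzyme gene Aldh1l1, a further astrocyte marker, was at 13.2 and 20.4 TPM in proliferation medium and at 5.09 and 14.2 TPM in differentiation medium (log2 change -0.86, SE 0.285, adjusted p = 0.0536). S100b (from 285 and 339 to 209.5 and 175 TPM), Cd44 (from 67.7 and 56.9 to 34.2 and 29.6 TPM), Id3 (from 337 and 282 to 179 and 161 TPM) and Agt (from 204 and 294 to 172 and 117 TPM) fell by 0.70, 0.94, 0.86 and 0.78. The transcription factor gene Nfib fell past the test as well. The rising genes thus included transporters, lipid carriers and metabolic enzymes. The falling ones were genes of a calcium-binding protein, an adhesion receptor, a BMP target, angiotensinogen and this transcription factor.

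Metallothioneins and zinc transporters included the largest rise of all tested genes. Of 13 tested members 5 rose and 1 fell (median 0.19), with 2 rises in the ten-library fit. The zinc transporter gene Slc39a12 (ENSMUSG00000036949, chromosome 2, 14388316 to 14494977) was at 0.0489 and 1.05 TPM in proliferation medium and at 83.0 and 77.5 TPM in differentiation medium, from near 0 in Control NSC#1 (log2 change 5.79, SE 0.329, adjusted p = 9.6e-06). Mt3, the metallothionein of the nervous system, was at 71.5 and 89.0 TPM in proliferation medium and at 965 and 887 TPM in differentiation medium, with the lines close in both media (log2 change 3.52, SE 0.13, adjusted p = 1.54e-06). Mt2 rose from 416 and 411 to 2742 and 1851 TPM (2.44, SE 0.153) and Mt1 from 746 and 719 to 3019 and 2628 TPM (1.94, SE 0.137). The manganese and zinc exporter gene Slc30a10 rose by 1.30, and Slc39a1 fell by 0.45.

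Oligodendrocyte precursor genes were high in both media, and some rose further. Of 15 tested members 6 rose and 2 fell (median 0.20), and 0 passed in the ten-library fit. Olig1 (2628 and 2742 against 2546 and 2837 TPM, log2 0.00) and Olig2 (1357 and 1385 against 949 and 1017 TPM) are transcription factors of the lineage, and Olig2 fell by 0.48 (adjusted p = 0.0237). Gpr17, a receptor of committed precursors, rose from 28.0 and 113 to 495 and 447 TPM (3.04, SE 0.362, adjusted p = 0.000353). Its starting level differed between the lines and its end level did not. Pdgfra, the PDGF receptor of precursors, rose from 34.8 and 43.4 to 88.6 and 85.3 TPM (1.14, SE 0.149, adjusted p = 0.000569), whereas Cspg4, the NG2 proteoglycan of the same cells, fell from 189 and 225 to 99.5 and 97.7 TPM (-1.06, SE 0.122, adjusted p = 0.000296). Lhfpl3, C1ql1, Pcdh15 and Tnr rose by 1.87, 1.52, 1.51 and 1.39. Of 16 tested genes of myelinating oligodendrocytes 7 rose and 2 fell (median 0.71), with 1 rise in the ten-library fit. Fa2h, an enzyme of myelin sphingolipids, rose from 1.17 and 1.44 to 10.4 and 16.6 TPM (2.62, SE 0.378, adjusted p = 0.00104), and the regulators Zfp488 and Myrf rose by 1.50 and 1.07. Cnp, a phosphodiesterase of myelin, fell by 0.87. Mbp was at 0.00512 and 1.08 TPM in proliferation medium and at 1.10 and 0.808 TPM in differentiation medium and did not pass (adjusted p = 0.675), and Mag, Mobp, Cldn11 and Ermn were below 1 TPM in every library.

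Neuronal genes rose in part. Of 28 tested pan-neuronal and synaptic members 11 rose, 0 fell and 17 did not pass (median 0.23), with 4 rises in the ten-library fit. With a control library left out, 0 rises passed in the ten-library fit and 6, 4, 4 and 0 in the control libraries alone, 0 without the proliferation library of Control NSC#1. The neurexin Nrxn3 rose from 1.56 and 2.63 to 28.2 and 30.1 TPM (3.31, SE 0.304, adjusted p = 8.06e-05). The RNA-binding protein gene Elavl3 of young neurons rose from 0.932 and 2.43 to 13.4 and 20.1 TPM (2.76, SE 0.35, adjusted p = 0.0005). Dcx, the microtubule-associated protein of migrating neurons, was at 2.44 and 2.28 TPM in proliferation medium and at 6.86 and 17.7 TPM in differentiation medium, with the larger rise in Control NSC#2 (log2 change 1.85, SE 0.414, adjusted p = 0.01). Rbfox3, which encodes the NeuN antigen of mature neurons, rose from 2.37 and 4.86 to 9.88 and 12.7 TPM (1.46, SE 0.341, adjusted p = 0.0123). Tubb3, the neuronal beta-tubulin, rose from 101 and 109.7 to 158 and 138 TPM (0.48, SE 0.126), and Map2 was at 559 and 569 TPM in proliferation medium and at 619.5 and 646 TPM in differentiation medium without passing (adjusted p = 0.332). Stmn2 and Nefl, genes of growing and mature axons, were below 1 TPM in all 4 libraries. Of 10 tested proneural and glutamatergic genes 1 rose, the Notch ligand Dll3 (1.12, SE 0.175), and 0 fell, and 0 passed in the ten-library fit. Neurog1, Neurod1 and Slc17a6 were among 10 members of that list that did not reach the filter. Of 9 tested genes of GABAergic neurons 2 rose and 0 fell, and 0 passed in the ten-library fit. The GABA-synthesising enzyme Gad1 rose from 5.98 and 9.90 to 25.2 and 31.8 TPM (1.75, SE 0.241).

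**Figure D3:**
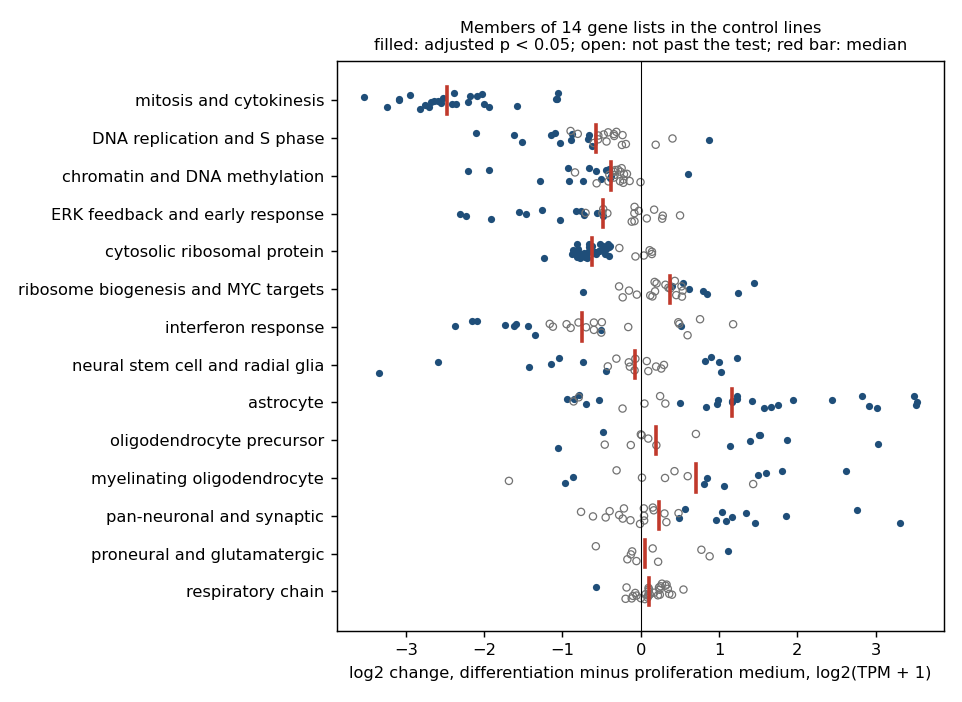
Change of each tested member of 14 gene lists between differentiation and proliferation medium in the control lines (x axis, log2(TPM + 1)), filled where the adjusted p was under 0.05 and with a red bar at the median. Every mitosis gene is filled and negative, and the astrocyte list has the most filled points on the positive side.

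Ion channels and receptors changed in both directions. Of 25 tested voltage-gated and potassium channels 10 rose and 3 fell (median 0.28), with 2 rises in the ten-library fit. Kcnd2 rose from 12.3 and 22.4 to 87.4 and 91.2 TPM (2.36, SE 0.199) and its relative Kcnd3 fell from 232 and 245 to 125 and 143 TPM (-0.83, SE 0.113). Kcnj10, the inward rectifier by which glia take up potassium, rose from 444 and 499.7 to 1451 and 1232 TPM (1.50, SE 0.137). Of 24 neurotransmitter receptors and transporters 8 rose and 3 fell (median 0.34), with 2 rises in the ten-library fit. The glial GABA transporter Slc6a11 rose from 204 and 321 to 1067 and 992 TPM (2.00, SE 0.167). The metabotropic glutamate receptors Grm5 (from 94.4 and 86.3 to 10.7 and 22.5 TPM) and Grm3 (from 109 and 125 to 38.1 and 36.7 TPM) fell by 2.46 and 1.62. Of 38 genes of axon guidance and adhesion 14 rose and 7 fell (median 0.38), with 4 rises and 2 falls in the ten-library fit. Cadm3 (from 0.0127 and 0.0216 to 5.21 and 5.74 TPM, 2.67) and the guidance cue Slit3 (from 0.0193 and 0.0126 to 4.97 and 4.40 TPM, 2.48) rose from near 0. Both entered the test through differentiation medium alone. The semaphorin Sema3a (from 48.3 and 41.1 to 13.4 and 11.8 TPM, -1.75) and its receptor Nrp1 (from 37.3 and 35.0 to 15.1 and 13.0 TPM, -1.31) fell.

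The Notch, BMP and Wnt lists had rises and falls, beside 12.4% and 12.7% of all tested genes. Of 23 tested Notch pathway members 3 rose and 3 fell (median 0.08), and 0 passed in the ten-library fit. The receptor Notch1 fell from 255 and 277 to 157 and 168 TPM (-0.71, SE 0.11), the ligand Jag1 fell by 0.81 and the target Hes5 fell from 198 and 339 to 114 and 137 TPM (-1.05, SE 0.138), whereas the receptor Notch2 rose by 0.42 and the target Hey1 by 0.39. Of 25 BMP and TGF-beta genes 3 rose and 4 fell (median 0.10), with 1 rise in the ten-library fit. The inhibitors of differentiation diverged, with Id4 up from 26.8 and 39.6 to 110.4 and 146 TPM (1.93, SE 0.134), Id2 up by 0.45 and Id3 down by 0.86. The BMP antagonist Nog rose from 0.88 and 1.24 to 3.83 and 9.4 TPM (1.79, SE 0.46). Of 28 Wnt genes 6 rose and 4 fell (median -0.02), with 1 rise in the ten-library fit. The ligand Wnt5a rose from 87.1 and 104 to 159 and 174 TPM (0.80, SE 0.117), the receptor Fzd3 rose by 0.94, and the transcription factor Tcf7 fell by 1.38.

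Lipid genes did not move as a block, beside 12.4% of all tested genes that rose and 12.7% that fell. Of 25 tested genes of cholesterol synthesis 4 rose and 4 fell (median 0.08), with 1 in each direction in the ten-library fit. Sqle, an early enzyme of the sterol branch, rose from 246 and 208 to 349.7 and 318 TPM (0.56, SE 0.111), and Hmgcs1 rose by 0.43. The late enzyme Dhcr7 fell from 124 and 109 to 65.6 and 61.2 TPM (-0.87, SE 0.124), Ebp fell by 1.19, and Srebf2, the master regulator of the pathway, fell by 0.51. Of 19 genes of fatty acid synthesis and lipid droplets 5 rose and 4 fell (median 0.30), with 2 rises in the ten-library fit. The desaturases Scd2 (from 2742 and 2546 to 6640.1 and 4715 TPM, 1.08) and Fads2 (from 185 and 228 to 569.7 and 593 TPM, 1.50) rose, while Fasn, the fatty acid synthase (from 205 and 208 to 133 and 119.5 TPM, -0.71), and Acly (-0.56) fell. Of 20 lipid transport genes 7 rose and 3 fell (median 0.34), with 2 rises in the ten-library fit. Apart from Apoe and Clu, the rises included the phospholipid transfer protein Pltp (from 11.3 and 15.6 to 57.1 and 54.5 TPM, 1.99), and the falls the lysosomal cholesterol exporters Npc1 (-0.66) and Npc2 (-0.52).

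Most ribosomal protein genes fell. Of 40 tested members 34 fell, 0 rose and 6 did not pass (median -0.62, range -1.24 to 0.14). In the ten-library fit 1 fell. With a control library left out, 0 falls passed in that fit and 7, 12, 0 and 7 in the control libraries alone, 0 without the proliferation library of Control NSC#1. Rplp0, a protein of the ribosomal stalk, fell from 2325 and 2471 to 969 and 1067 TPM (-1.24, SE 0.138, adjusted p = 0.000256), and Rpl4 fell by 0.88. Ribosomal protein genes share reads with processed copies in the genome, so single values are uncertain. The elongation factor gene Eef2, added after its values were seen, fell from 2941 and 4185 to 1504 and 1411 TPM (-1.27, SE 0.179). Genes of ribosome biogenesis and MYC targets had the opposite sign, with 7 rises and 1 fall of 25 tested (median 0.38) and 2 rises in the ten-library fit. Examples are the nucleolar protein gene Rrp9 (from 6.06 and 6.81 to 23.9 and 15.4 TPM, 1.44) and Odc1, the polyamine enzyme (from 172 and 118 to 247 and 249 TPM, 0.79). Of 30 respiratory chain genes 0 rose, 1 fell (Atp5c1, -0.57, SE 0.11) and 29 did not pass (median 0.10), and 0 passed in the ten-library fit.

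The lists of metabolism and stress stand beside 12.4% of all tested genes that rose and 12.7% that fell. Of 24 tested genes of glycolysis and hypoxia 4 rose and 6 fell (median 0.04), with 1 rise in the ten-library fit. The glucose transporter gene Slc2a1 rose from 32.8 and 32.5 to 105 and 104 TPM (1.65, SE 0.136, adjusted p = 4.48e-05), while the lactate dehydrogenase gene Ldha fell from 357 and 381 to 225 and 216 TPM (-0.74, SE 0.112) and Tpi1 fell by 0.78. Of 25 genes of unfolded protein and amino acid stress 7 rose and 6 fell (median 0.28), with 2 rises and 1 fall in the ten-library fit. The rises included the transcription factor Atf4 (from 248 and 252 to 516 and 499.7 TPM, 1.02), the serine synthesis enzymes Phgdh (0.96) and Psat1 (0.75), the transporter Slc7a11 (1.12) and the endoplasmic reticulum co-chaperone Dnajb9 (1.04). The falls included other chaperones and regulators of the endoplasmic reticulum, such as Hspa5 (from 640.0 and 616 to 395 and 408 TPM, -0.65), Pdia4 (-0.66) and Xbp1 (-0.92). Of 32 genes of lysosome and autophagy 7 rose and 7 fell (median -0.06), with 1 fall in the ten-library fit. The membrane protein Lamp1 rose from 856 and 746 to 1479 and 1679.7 TPM (0.98, SE 0.142), and the hydrolases Gusb (-0.88) and Glb1 (-0.56) fell. Of 19 genes of isocitrate and 2-hydroxyglutarate metabolism 1 rose (Glud1, 0.84, SE 0.122) and 2 fell (median -0.18), with 1 fall in the ten-library fit. These were Got2, the mitochondrial aspartate aminotransferase (from 247 and 248 to 101 and 103 TPM, -1.27, SE 0.112), and Idh2 (-0.49, SE 0.116).

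Interferon response genes fell in part. Of 26 tested members 9 fell, 1 rose and 16 did not pass (median -0.75), and 2 fell in the ten-library fit. With a control library left out, 0 or 1 of the falls passed in the ten-library fit and 2, 5, 0 and 0 in the control libraries alone, 0 without either of the proliferation libraries. Rsad2, the antiviral protein viperin, fell from 28.1 and 21.5 to 4.34 and 3.59 TPM (-2.37, SE 0.277, adjusted p = 0.000321). The RNA sensor gene Ddx58 fell from 28.0 and 22.9 to 8.69 and 6.55 TPM (-1.62, SE 0.243, adjusted p = 0.00126). Ifit1 fell by 2.15, whereas its family member Ifit2 rose by 0.51. Of 14 genes of the MHC class I pathway 4 fell and 2 rose (median -0.63), and 0 passed in the ten-library fit. The class I genes H2-D1 (from 127 and 139.9 to 69.5 and 50.6 TPM, -1.15) and H2-K1 (from 104 and 89.3 to 75.4 and 51.8 TPM, -0.62) fell, with values that near-identical copies can share. Of 18 complement and inflammatory genes 3 rose and 2 fell (median 0.19), against 12.4% and 12.7% of all tested genes. In the ten-library fit 0 of them passed. Serpina3n, a protease inhibitor of reactive glia, fell from 84.7 and 94.3 to 21.9 and 21.2 TPM (-1.90 in Control NSC#1 and -2.10 in Control NSC#2).

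Extracellular matrix genes changed in both directions, with more falls than rises. Of 31 tested members 10 fell and 3 rose (median -0.26), with 3 falls in the ten-library fit. Besides Tnc, the falls included the laminin Lama4 (from 24.0 and 19.4 to 4.43 and 4.28 TPM, -2.08) and the collagen Col6a1 (from 24.6 and 15.3 to 5.98 and 0.895 TPM, -2.49). Fibronectin, Fn1, rose from 18.4 and 11.1 to 52.2 and 65.9 TPM (1.96, SE 0.24) and Sparc rose from 1040.5 and 851 to 2471 and 2039.5 TPM (1.25, SE 0.135). Of 25 tested p53 targets and apoptosis genes 4 rose and 5 fell (median 0.02), against 12.4% and 12.7% of all tested genes. In the ten-library fit 1 of them rose. That was Bcl2, the survival factor (from 11.7 and 16.5 to 47.3 and 56.7 TPM, 1.83, SE 0.185, adjusted p = 0.00014). Bcl2l11, which encodes the pro-apoptotic protein BIM, rose by 0.90, and Bmf fell by 0.95. Of 23 genes linked to FoxO factors and growth factor withdrawal 5 rose and 4 fell (median 0.08), against the same shares. In the ten-library fit 3 of them rose and 1 fell. Pink1, a kinase of mitochondrial quality control, rose from 238 and 257 to 692 and 603 TPM (1.38, SE 0.122). The glucocorticoid- and FoxO-inducible gene Tsc22d3 rose by 0.98, while Txnip fell from 332 and 416 to 136 and 103 TPM (-1.64, SE 0.162).

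Markers of other lineages were mixed, beside 12.4% of all tested genes that rose and 12.7% that fell. Of 13 tested cilia and ependymal genes 2 rose and 0 fell (median 0.20), and 0 passed in the ten-library fit. Foxj1, the master regulator of motile cilia, rose from 8.19 and 12.6 to 56.8 and 62.2 TPM (2.44, SE 0.201, adjusted p = 4.49e-05), while Mcidas and Gmnc, regulators of multiciliated cells, were below 1 TPM in every library. Of 8 tested pericyte, fibroblast and mesenchymal markers 4 rose and 1 fell (median 0.68), and 0 passed in the ten-library fit. The contractile genes Acta2 (from 0.0525 and 0.0846 to 4.08 and 4.53 TPM) and Myl9 (from 17.8 and 19.2 to 49.5 and 56.5 TPM) rose by 2.31 and 1.47. Acta2 entered the test through differentiation medium alone. The defining genes Pdgfrb, Rgs5, Col1a2, Dcn and Lum were below 1 TPM throughout. The summed level of that list was 236 and 280.1 TPM before and 195 and 197 TPM after, led by Cspg4. Of 9 neural crest and Schwann cell markers 1 rose and 4 fell (median -0.93), and 0 passed in the ten-library fit. The falls included Ets1 (from 295 and 301 to 92.2 and 104 TPM, -1.60, SE 0.114), and Foxd3 was below 1 TPM. The part of such cells in the other results was not tested.

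The genes with the largest changes were largely outside the lists. After Slc39a12, the largest rises were those of Tmem132b, a membrane protein (from 0.483 and 2.44 to 87.6 and 105 TPM, 5.42), the matricellular growth factor Ctgf (from 0.00541 and 0.419 to 28.4 and 29.0 TPM, 4.64), Ucma (4.51), the desaturase Scd4 (4.37) and Psd2 (4.32). Fmod, a small matrix proteoglycan (4.10), the long noncoding RNA Miat (4.05), the adrenergic receptor Adra2a (4.01) and Plscr2 (3.99) came next. Mfsd2a, a transporter of omega-3 lysolipids (from 21.7 and 28.1 to 391.8 and 317 TPM, 3.78), Pla2g5 (3.78), Fxyd1 (3.77), Chst1 (3.72) and the axon initial segment protein Nfasc (from 5.26 and 10.3 to 113 and 98.5 TPM, 3.66) completed the 15. Of these, Ctgf, Fmod, Plscr2, Pla2g5, Fxyd1 and Chst1 were below 1 TPM in both proliferation libraries and so entered the test through differentiation medium alone. The largest fall was that of the matrix protein gene Fbln2, on chromosome 6 from 91212455 to 91272540 (from 562 and 664 to 26.4 and 18.9 TPM, -4.71), which was not past the test in the ten-library fit (adjusted p = 0.143). Cd93 (-3.97), Gcnt4 (-3.79), the guanylate-binding protein Gbp9 (-3.71) and the Nogo receptor relative Rtn4rl1 (-3.61) fell as well. Mitotic genes outside the list stood among the 15 largest falls, namely Fam64a (-3.49), Psrc1 (-3.45), Cdc25c (-3.45) and Knstrn (-3.40), beside Ube2c of the list. Also among them were Hrc (-3.45), Tnc, Gypc (-3.34) and the noncoding RNA Hotairm1 (-3.44). Hotairm1 fell from 9.03 and 10.9 to 0.00391 and 0.00391 TPM, at the lowest value of the table in differentiation medium. It entered the test through proliferation medium alone and did not pass in the ten-library fit (limma adjusted p = 0.27).

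Some genes were detected in 1 medium alone. In the whole table, 79 genes had at least 1 TPM in both differentiation libraries and under 0.1 TPM in both proliferation libraries, and 108 genes had the reverse. With a bound of 2 TPM in the higher medium, 74 of the 187 were left. Fmod (from 0.0203 and 0.0127 to 17.0 and 15.9 TPM), Pla2g5 (from 0.00525 and 0.0551 to 17.3 and 9.93 TPM) and the somite regulator Ripply1 (from 0.0201 and 0.0121 to 11.7 and 9.99 TPM) were of the first kind. Tmem182, with values from 12 and 3.59 to 0.0519 and 0.00677 TPM, was of the second kind, as was Areg, an EGF receptor ligand and ERK target (from 1.51 and 1.39 to 0.00545 and 0.00661 TPM), which did not pass the test (adjusted p = 0.17). Depth is unknown in these values, so a level this low cannot be told from 0.

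The lines differed in a smaller set of genes. Among the 138 genes that moved by at least 1 in opposite directions, 36 reached 5 TPM in a library. Snhg1, a noncoding RNA that hosts small nucleolar RNAs, had the largest difference between the lines, at 20.2 and 1.41 TPM in proliferation medium and at 0.0348 and 5.54 TPM in differentiation medium. It went down in Control NSC#1 and up in Control NSC#2 (log2 -1.46, SE 1.03, adjusted p = 0.337). Asphd1 (2.29 and 0.052 against 0.00712 and 6.91 TPM) and 4933424G06Rik (3.34 and 0.142 against 0.087 and 5.19 TPM) had the same pattern. Glt1d1 (0.00538 and 1.90 against 6.44 and 0.00536 TPM) had the reverse, and Mir1291 (3.86 and 2.12 against 0.0127 and 12 TPM) again went down in Control NSC#1. None of these 5 passed the test, and in each the libraries of the media overlapped. Picking genes with opposite changes forces this overlap and makes a pass unlikely, so neither is a result about them.

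The Atrx-deleted lines give the comparison of genotypes. All control libraries share 1 prefix in their column names and all Atrx-deleted libraries another, and the meaning of the prefix is not stated. Differences in level between genotypes cannot be told apart from whatever the prefix marks. In the fit of all 10 libraries, the difference between the response of the control lines (2 lines) and that of the Atrx-deleted lines (3 lines) passed for 1 of 15660 genes (0.00639%), and 1099 had an unadjusted p under 0.05. That gene was Tmem132b (ENSMUSG00000070498, chromosome 5, 125531774 to 125792583), which encodes a transmembrane protein. It was at 0.483 and 2.44 TPM in proliferation medium and at 87.6 and 105 TPM in differentiation medium in the control lines. In the Atrx-deleted lines it was at 0.416, 0.343 and 0.0476 TPM in proliferation medium and at 0.131, 0.0117 and 0.0899 TPM in differentiation medium, below every control library. The response differed by 5.65 (log2, SE 0.584, adjusted p = 0.0282), as the response in the Atrx-deleted lines was -0.22. With each library left out in turn, the adjusted p ranged from 0.0251 to 0.297 and passed in 2 of the 10 cases. Without the Atrx-deleted library mA19d#7 in differentiation medium, 3 genes passed. Miat rose in the control lines (from 7.47 and 14.4 to 178 and 200.3 TPM) and was under 5 TPM in every Atrx-deleted library, but its difference of responses did not pass (4.77, SE 0.958, adjusted p = 0.288).

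**Figure D4:**
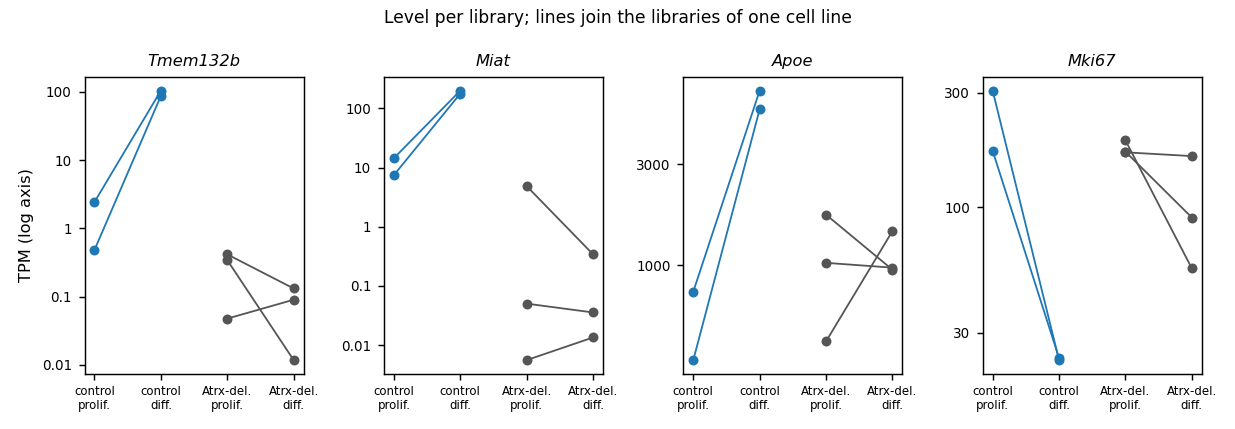
Level of Tmem132b, Miat, Apoe and Mki67 in all 10 libraries (y axis, TPM on a log scale), in control lines (blue) and Atrx-deleted lines (grey) in proliferation (prolif.) and differentiation (diff.) medium, with a line joining the libraries of each cell line. Tmem132b and Miat go up in the control lines and stay under 5 TPM in the Atrx-deleted lines.

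For the lists, the medians of the genotypes can be set side by side, since the lines share no library. The mitosis list had a median of -2.47 in the control lines and -0.68 in the Atrx-deleted lines. Of its 26 members 22 had an unadjusted limma p under 0.05 for the difference, against 1099 of all 15660 genes. After adjustment over all genes 0 passed (smallest adjusted p = 0.288). Mki67 was at 189.6, 169 and 170.2 TPM in proliferation medium and at 55.6, 163 and 90.5 TPM in differentiation medium in mA16d#4, mA19d#4 and mA19d#7. The astrocyte list had medians of 1.16 and 0.50, the interferon list -0.75 and 0.11, and the ribosomal protein list -0.62 and -0.57. Over all tested genes the medians were -0.01 and 0.01. Of the 31, 26 and 40 members of these 3 lists, 6, 5 and 0 had an unadjusted p under 0.05 for the difference, and 0 passed after adjustment.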

How the data were processed

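RNA was extracted from 10 cultures with a silica column kit and made into libraries with a TruSeq kit, per the labels' protocols, and reads were aligned with STAR to mm10, per the submitters' processing notes. Tool versions, the gene annotation and the quantification step are not stated in the sources used here. The values are log2 values as deposited by the authors, 1 per gene and library. Each of the 10 libraries holds the same sorted values, with 1213 genes at a floor of -8 and a back-transformed sum of 997524, so they were read as quantile-normalised log2 of TPM (length-corrected share of all transcripts) as deposited by the authors. Depth is therefore unknown, and shifts of total expression are hidden.

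Linear TPM had been planned for, so values were back-transformed. Genes that reached 1 TPM in 2 or more control libraries were tested on log2(TPM + 1), a scale that understates changes of low genes. The test was limma 3.58.1 (R 4.3.3) with trend and line as a block. It was tried on simulated data whose spread followed the assumptions of the model, with no difference between lines. That trial cannot show whether the assumptions hold in these libraries. P-values were adjusted over the tested genes by Benjamini-Hochberg, with a threshold of 0.05. The labels name the line in both media, which pairs the libraries. The correlation of the deviations of the lines between media was 0.0734. Named were the 15 largest rises and falls past the test (log2 of at least 1, mean of 5 TPM or more in the higher medium, same direction in both lines), up to 4 members per list and direction, a fixed set of markers, and the 5 genes most opposed between lines. Other genes named were chosen after their values were seen. Some genes that this rule names are not reported here. The genes, the 41 lists and the tests were chosen with earlier results of these data known. Promoters are RefSeq windows of 300 bases, and positions are from GENCODE M21 (GRCm38). Alternatives were no block, all 10 libraries, other pseudocounts, filters and scaling, limma without trend or robust, and each library left out.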

Additional observations from a re-analysis of the deposited data

Results flagged for a closer look

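The response of Tmem132b to differentiation medium differed between the control and the Atrx-deleted lines by 5.65 on the log2 scale (SE 0.584, limma adjusted p = 0.0282), the 1 gene past a test of that difference. It rose in 2 of 2 control lines and was under 1 TPM in the 6 Atrx-deleted libraries. With the line as a replicate block the adjusted p was 0.128, with a pseudocount of 0.1 it was 0.226, and without a filter on low values it was 0.0148. The difference kept its sign in these 3 settings and with each library left out in turn (5.04 to 6.25).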

How the results depend on the processing

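The count of genes called between media in the control lines, 3646, depended on how the spread was estimated. It was 2805 without the replicate block of the paired fit, 748 with all 10 libraries as 4 group means, 486 with all 10 and a replicate block by line, and 0 without a filter or without the trend. With each control library left out of the ten-library fit it ranged from 6 to 159, and with the control libraries alone and no block, added after seeing the data, from 167 to 1143. Without the mA19d#7 differentiation library, also added, the ten-library fit called 1495. With pseudocounts of 0.1 and 5 it was 2982 and 3583, with a filter of 5 TPM 3755, robust 3560 and with median-of-ratios scaling 3784. The cause of the smaller counts was not tested, except that 3 libraries leave fewer samples. Of 280 named genes past the test, 242 were past it without the block and 96 in the ten-library fit, and 0 changed sign in any setting. The settings without the block, with all 10 libraries, without the trend and robust alter the spread alone. Changes and list medians are identical there by design, so their signs could not change. The medians of 41 lists kept their sign, except 4 with a filter of 5 TPM and 4 or 5 with a library left out. Of 398 list members past the test, counted once per list, 0 to 24 were past it with a control library left out of the ten-library fit, and 41 to 179 in the control libraries alone without the block, the fewest without the proliferation library of Control NSC#1. The difference of responses between genotypes called 1 gene, 0 with the block or a pseudocount of 0.1, 30 without a filter, and 0 to 3 with a library left out. Genes moving in opposite directions in the lines numbered 138, and 264, 1 and 8 with pseudocounts of 0.1 and 5 and a filter of 5 TPM. Genes detected in 1 medium numbered 187, and 74 with a bound of 2 TPM.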

Other observations

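Of abundant cytoskeletal genes, chosen after their values were seen, some fell and others rose in the control lines (log2 changes and their SE follow the TPM levels). The actin genes Actb (from 3902 and 3902 to 1896 and 1896 TPM, log2 -1.04, SE 0.158) and Actg1 (from 1479 and 1541 to 618 and 616 TPM, -1.29, SE 0.125) fell. The actin-binding genes Tmsb4x (from 7897 and 7897 to 3608 and 3608 TPM, -1.13, SE 0.191), Cfl1 (-0.76) and Tagln2 (from 399 and 282 to 45.0 and 47.2 TPM, -2.84, SE 0.147) fell too. The galectin Lgals1 fell from 1338 and 1008 to 215 and 154 TPM (-2.67, SE 0.113). Of the tubulins, Tuba1a (from 3019 and 2268 to 4185 and 3902 TPM, 0.63) and Tubb2b (from 1647 and 1647 to 2628 and 2471 TPM, 0.63), which are abundant in neural cells, rose. The widely expressed Tubb5 (from 1935 and 1504 to 1000.1 and 977 TPM, -0.79) fell. Of these, Actg1 (adjusted p = 0.00997), Tagln2 (0.0219) and Lgals1 (0.0213) also passed in the fit of all 10 libraries with limma. Since all libraries hold the same set of values, a fall of such abundant genes is a fall in rank.

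Further genes with large changes were also chosen after their values were seen. The matricellular gene Cyr61 rose from 13.7 and 14.1 to 65.8 and 65.7 TPM (log2 2.16, SE 0.173) and Thbs1 from 1.08 and 1.79 to 9.77 and 15.1 TPM (2.45, SE 0.374), whereas Tnc and Spp1 of the same kind fell. The matrix gene Col9a2 rose from 2.29 and 4.70 to 47.1 and 45.9 TPM (3.45, SE 0.281). Ogn rose from 0.418 and 0.139 to 9.30 and 14.6 TPM (3.32, SE 0.455) and Fmod from 0.0203 and 0.0127 to 17.0 and 15.9 TPM (4.10, SE 0.421). Ogn and Fmod entered the test through differentiation medium alone. The small heat shock protein gene Cryab rose from 44.9 and 43.6 to 368 and 391.8 TPM (3.07, SE 0.117). Reln, which encodes the secreted guidance protein reelin, rose from 6.31 and 9.61 to 69.6 and 74.3 TPM (3.05, SE 0.203). The growth factor gene Igf1, which entered the test through proliferation medium alone, fell from 7.82 and 6.39 to 0.734 and 0.494 TPM (-2.33, SE 0.449). Tle2, a Groucho corepressor, fell from 79.0 and 74.9 to 9.49 and 11 TPM (-2.79, SE 0.183).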
